A study of Xenopus tropicalis with 12 samples.

Results

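A set of 26 genes, of 19921 counted in tadpole intestine, was higher in the libraries labelled T3Homo than in those labelled contHomo while the libraries labelled T3WT stayed close to contWT. By these labels the set holds genes that were higher with thyroid hormone in animals without thyroid hormone receptor alpha (TRα) and close to their untreated level in wild type. The genes were chosen by measured values of all 12 libraries. Levels were expressed in CPM, read counts scaled to a common library size with TMM factors, and averaged per group, and 0.5 CPM was added before each log2 difference. A member had a highest group mean of at least 2 CPM, a T3Homo over contHomo log2 difference of at least 1, and a T3WT over contWT log2 difference below 0.5 in either direction. These differences are therefore a description of the set and are not tested.

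RNA was taken from the intestine of Xenopus tropicalis tadpoles, wild-type or TRα (-/-), born to shared parents and labelled as stages 52 to 54. Tadpoles were left untreated or were given 10 nM T3, the active thyroid hormone, for 18 h. By the column labels, contWT is wild type without T3, T3WT wild type with T3, contHomo TRα (-/-) without T3 and T3Homo TRα (-/-) with T3. Each group has 3 libraries, described as technical replicates of 1 RNA pool from several tadpoles, so errors and p-values cover how far libraries of the same pool differ and say nothing of animals. Fewer cells of a type and less RNA per cell cannot be told apart in such bulk samples. The TRα allele and the number of tadpoles per pool were not given in the sources used here.

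The labels conflict for the contHomo and T3WT libraries. The sample titles describe contHomo as T3-treated wild type and T3WT as untreated TRα (-/-). Under the titles, the 26 genes were higher in TRα (-/-) than in wild type when T3 was given, and close to wild type without it. The label check on the deleted receptor gene could not be made, because the gene identifiers of the table could not be paired with symbols, and neither could a check of the tissue against intestinal markers. For the same reason the 26 genes are given by identifier, with no name, function or sequence.

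T3 acts through the nuclear receptors TRα and TRβ, which bind DNA as partners of retinoid X receptors. In the common model, a receptor without hormone recruits corepressors and holds its target genes down, and hormone exchanges these for coactivators. TRα is present before metamorphosis, whereas TRβ is itself raised by T3 in Xenopus. In the intestine T3 drives the death of the larval epithelium and the formation of adult stem cells.

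Library totals ranged from 34322099 to 44755390 counts. The T3WT libraries stood apart from the rest, with TMM factors of 1.21 to 1.22 against 0.913 to 0.957 in the other groups, and with 15236 to 15327 genes holding a count against 14751 to 14888. This scaling enters the T3WT over contWT limit directly. At scaling by total counts the median log2 difference of T3WT over contWT over the genes at 2 CPM or more was 0.36 in place of -0.03, and 10 of the 26 genes still lay within 0.5. The median log2 difference over all 26 genes was then 0.59, outside the limit of 0.5, in place of 0.20. Measured from the median of all genes at the level minimum, 24 of the 26 lay within 0.5 under either scaling. A change of scaling shifts all genes by nearly the same amount, so this agreement was largely set in advance. It does not show that the set holds at scaling by total counts.

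Of the 10677 genes that reached 2 CPM in a group, 172 had a T3Homo over contHomo log2 difference of at least 1. T3WT over contWT was at least 0.5 in 133 of these and at most -0.5 in 13, and the other 26 are the set. The 26 genes thus made up 15.1% of the genes raised in T3Homo. Their T3Homo over contHomo log2 difference ran from 1.01 to 2.04 with a median of 1.17, where the median of all 10677 genes was 0.02. Their T3WT over contWT log2 difference ran from -0.44 to 0.49 with a median of 0.20, against -0.03 for all. All 26 were tested across the genome and all 26 were called higher in T3Homo vs contHomo, at an edgeR adjusted p below 0.05 and a fold change of at least 2. The share called higher there among all 13172 tested genes was 2.77%, and nothing is read from the members' count because the rule used this contrast.

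**Figure D1:**
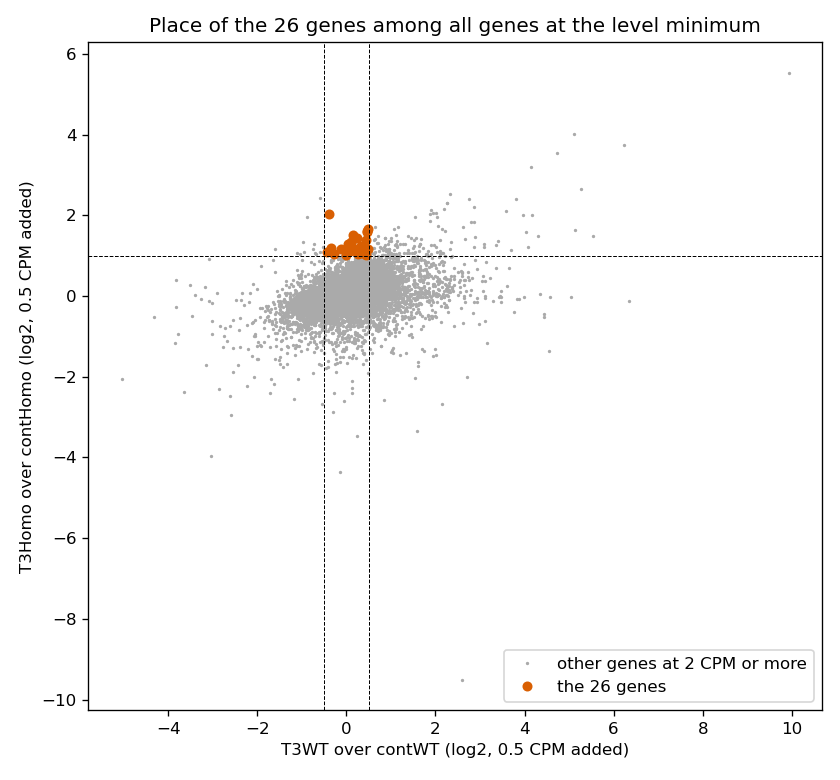
Each point is a gene with a highest group mean of at least 2 CPM, placed by its T3WT over contWT (x axis) and T3Homo over contHomo (y axis) log2 difference of group means, with 0.5 CPM added. Dashed lines mark the limits of -0.5, 0.5 and 1 that chose the 26 genes (orange), which fill a strip at the edge of the main cloud, with 1 gene at 2.04.

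The limit on T3WT kept small differences from contWT inside the set. In 20 of the 26 genes the T3WT mean was above the contWT mean, and in 15 all T3WT libraries were above all contWT libraries. In 4 genes all T3WT libraries were below, and in 7 the libraries of these groups overlapped. The share of all genes without overlap is not given here. At the edgeR adjusted p alone, 15 members were higher in T3WT vs contWT, 5 were lower and 6 did not pass. Among all 13172 tested genes 10340 passed in either direction, so passing the adjusted p is common in these libraries and not a trait of the set. The set is better described as genes with a smaller T3WT difference than as genes with none. Between the T3Homo and contHomo libraries there was no overlap in any of the 26. The limit of 1 on this difference and the small spread between technical libraries largely set this in advance. At the edgeR adjusted p alone, 8351 of all 13172 tested genes passed in T3Homo vs contHomo.

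Several genes lay close to a limit. ENSXETG00000022373 was the gene just inside the T3Homo limit, at a log2 difference of 1.01, and ENSXETG00000023469 was just outside at 0.99. ENSXETG00000030142 was just inside the upper T3WT limit at 0.49, and ENSXETG00000004573 was just outside at 0.50 (0.5016 before rounding). At the lower T3WT limit ENSXETG00000007257 had -0.44 and ENSXETG00000019001 had -0.53. ENSXETG00000027136 had the lowest highest group mean of the set, 2.34 CPM, and ENSXETG00000034109, outside, reached 1.10 CPM. A total of 8 members had a T3Homo over contHomo log2 difference below 1.1, and 25 genes that met the other limits had 0.9 to 1.

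The level of the 26 genes in each library is plotted by group. Sorting the genes by which libraries stood apart, after the values were seen, gave a pair of patterns and a middle form. In 20 genes every T3Homo library was above the other 9 libraries, which held for 15.5% of all genes at the level minimum. In 14 genes every contHomo library was below the other 9, which held for 10.3%. Since the rule had already set T3Homo above contHomo, these shares are fixed in part. In 12 genes T3Homo stood above the rest without contHomo standing below, in 6 contHomo stood below the rest without T3Homo standing above, and in 8 both were seen.

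**Figure D2:**
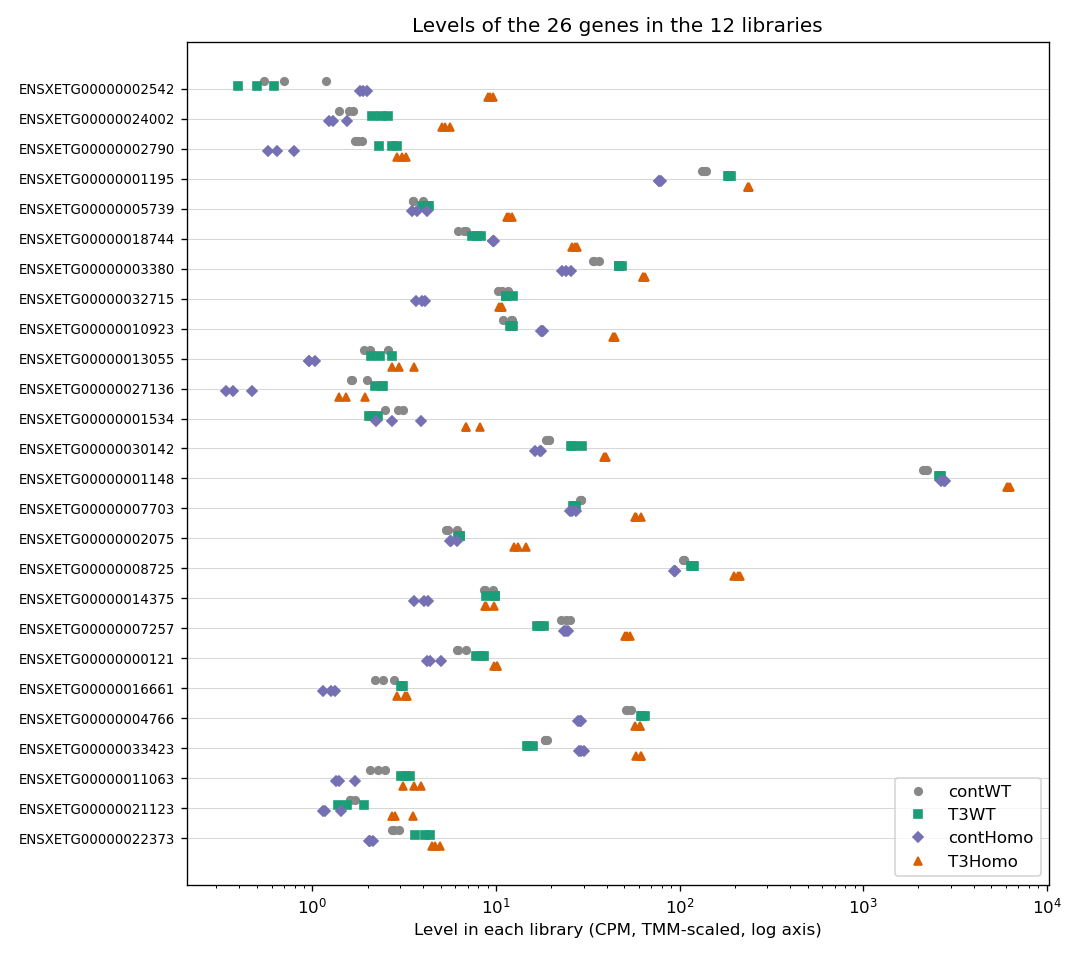
Level in CPM (x axis, log scale) of the 26 genes (rows, ordered by their T3Homo over contHomo difference) in each of the 12 libraries, with 1 point per library and colour and shape by group. In every row the T3Homo triangles lie to the right of the contHomo diamonds, and the grey contWT and green T3WT points lie near the diamonds in some rows and near the triangles in others.

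The first pattern, T3Homo above the other libraries without contHomo below them, included the gene with the largest difference. In its 12 genes the ratio of contHomo to contWT ran from 0.764 to 2.34. ENSXETG00000002542, annotated with 16 exons on scaffold GL172879.1, plus strand, from 535203 to 553549, held 9.64, 9.22 and 9.07 CPM in the T3Homo libraries and 1.97, 1.81 and 1.88 in contHomo. It held 1.18, 0.542 and 0.701 CPM in contWT and 0.501, 0.618 and 0.395 in T3WT. T3Homo was 4.93-fold contHomo, and contHomo was itself above all 6 WT libraries. The WT values rest on 18 to 42 counts per library, and contWT had the widest relative spread of the set, with an SD of 41.1% of its mean.

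ENSXETG00000005739, with 5 exons on the plus strand of GL172714.1 from 2300330 to 2308924, showed the first pattern with the other groups level. It held 11.4, 11.8 and 12.2 CPM in T3Homo, against 4.22, 3.71 and 3.47 in contHomo, 3.51, 3.53 and 4.02 in contWT and 3.96, 4.26 and 4.31 in T3WT. The 9 other libraries overlapped across their groups, and T3Homo was 3.11-fold contHomo. ENSXETG00000024002, with 9 exons on the plus strand of GL172684.1 from 1461722 to 1488711, was at 5.33 ± 0.241 CPM (SD, n = 3 libraries) in T3Homo and 1.36 ± 0.159 in contHomo. Its T3WT level of 2.35 ± 0.236 CPM was above its contWT level of 1.54 ± 0.129, without overlap.

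In ENSXETG00000018744, ENSXETG00000010923 and ENSXETG00000033423 contHomo lay between the WT groups and T3Homo. ENSXETG00000010923, with 9 exons on the minus strand of GL173662.1 from 146483 to 152944, held 12.3, 10.9 and 12.1 CPM in contWT and 12, 12.1 and 12.4 in T3WT. It held 17.7, 17.7 and 18.0 CPM in contHomo and 43.2, 44.7 and 43.8 in T3Homo. The WT groups overlapped, and all contHomo libraries were above them. ENSXETG00000018744, with 3 exons on the plus strand of GL173099.1 from 196198 to 230605, was at 6.58 ± 0.329 CPM in contWT, 7.86 ± 0.401 in T3WT, 9.65 ± 0.0723 in contHomo and 26.9 ± 0.783 in T3Homo. ENSXETG00000033423, with 3 exons on the plus strand of GL172675.1 from 1385159 to 1388690, was at 18.6 ± 0.302 CPM in contWT, 15.2 ± 0.583 in T3WT, 29.2 ± 0.769 in contHomo and 60.4 ± 1.88 in T3Homo.

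ENSXETG00000001148 was by far the most highly expressed member. It has 46 exons on the plus strand of GL172686.1, from 226898 to 288483, with a summed exon length of 5268 bases. It held 6285, 6121 and 6062 CPM in T3Homo, 2672, 2768 and 2785 in contHomo, 2196, 2214 and 2131 in contWT and 2613, 2663 and 2602 in T3WT. The T3Homo libraries stood 2.25-fold above contHomo, while contHomo and T3WT were both above contWT by a smaller step. Per kb of exon its T3Homo level was 1169 CPM, where the median over the 26 genes of the highest group mean per kb was 7.90. It took 86.7% of the reads of the set in T3Homo and 81.5% in contWT. Summed over the other 25 genes, the level was 947 ± 12.9 CPM in T3Homo, 385 ± 2.86 in contHomo, 494 ± 5.55 in contWT and 586 ± 1.91 in T3WT, so the contHomo sum was the lowest of the 4.

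ENSXETG00000007257, also of the first pattern, had the lowest T3WT over contWT log2 difference of the set with 0.5 CPM added. Without that addition ENSXETG00000002542 was lower, at a T3WT to contWT ratio of 0.626 against 0.729. In the edgeR fit its T3WT vs contWT log2 fold change was -0.67, outside the limit of 0.5. ENSXETG00000024002 at 0.61 and ENSXETG00000002790 at 0.57 were also outside it. These genes, which have the largest T3Homo over contHomo log2 differences of the set, met the T3WT limit because 0.5 CPM was added. ENSXETG00000007257 has 9 exons on the plus strand of GL172703.1 from 3062915 to 3092714. Its libraries held 24.0, 25.2 and 22.5 CPM in contWT, 17.4, 18.1 and 16.7 in T3WT, 23.9, 24.7 and 23.6 in contHomo and 53.4, 51.7 and 50.1 in T3Homo. The groups without T3 by the column labels overlapped, and the T3-labelled groups lay on opposite sides of them.

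In the second pattern contHomo was below all other libraries and T3Homo was not above them. In its 6 genes the ratio of T3Homo to contWT ran from 0.917 to 1.56. ENSXETG00000032715, with 4 exons on the minus strand of GL172982.1 from 221279 to 223154, held 4.11, 3.65 and 3.95 CPM in contHomo. It held 10.3, 10.7 and 10.8 CPM in T3Homo, 10.2, 11.6 and 10.8 in contWT and 12.4, 11.3 and 11.3 in T3WT. The T3Homo and contWT libraries overlapped, so the 2.72-fold difference between T3Homo and contHomo came with a contHomo level below all other libraries.

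ENSXETG00000014375, with 3 exons on the plus strand of GL172744.1 from 1457772 to 1460817, also had contHomo below the other groups. It held 4.24, 3.59 and 4.03 CPM in contHomo, 9.76, 8.78 and 8.73 in T3Homo, 9.60, 8.66 and 8.56 in contWT and 8.82, 9.91 and 9.93 in T3WT. All groups but contHomo overlapped. ENSXETG00000027136, with 2 exons on the plus strand of GL175111.1 from 3543 to 10418, was at 0.392 ± 0.0663 CPM in contHomo, from 11 to 17 counts per library. It was at 1.61 ± 0.280 CPM in T3Homo, 1.75 ± 0.207 in contWT and 2.34 ± 0.125 in T3WT. Its T3Homo mean was the lowest of the other groups, and T3Homo was below T3WT without overlap.

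In the middle form contHomo was below and T3Homo above the WT groups. ENSXETG00000001195, with 11 exons on the minus strand of GL172777.1 from 533460 to 561717, held 77.5, 77.6 and 79.4 CPM in contHomo and 239.8, 237 and 234 in T3Homo. It held 137, 139.9 and 133 CPM in contWT and 184, 190.4 and 186 in T3WT. No groups overlapped, and the T3WT level was 1.37-fold contWT where T3Homo was 3.03-fold contHomo. ENSXETG00000003380, with 11 exons on the minus strand of GL172791.1 from 1127110 to 1136841, ran in the same order, at 24.1 ± 1.25 CPM in contHomo, 34.8 ± 1.35 in contWT, 47.6 ± 1.13 in T3WT and 63.9 ± 0.757 in T3Homo. ENSXETG00000030142, with 18 exons on the minus strand of GL173384.1 from 337650 to 378169, was at 17.1 ± 0.765, 19.2 ± 0.490, 27.1 ± 2.01 and 39.1 ± 0.585 CPM in the same order.

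ENSXETG00000008725, with 1 exon on the plus strand of GL172686.1 from 1156027 to 1157877, was at 94.1 ± 0.701 CPM in contHomo, 105 ± 1.30 in contWT, 118 ± 1.95 in T3WT and 206 ± 6.90 in T3Homo. ENSXETG00000002790, with 9 exons on the plus strand of GL173097.1 from 258193 to 300404, was at 0.672 ± 0.113 CPM in contHomo, 1.78 ± 0.0705 in contWT, 2.63 ± 0.295 in T3WT and 3.07 ± 0.164 in T3Homo. In ENSXETG00000022373, with 8 exons on the minus strand of GL172976.1 from 538200 to 546607, the levels were 2.08 ± 0.0585, 2.82 ± 0.140, 4.03 ± 0.378 and 4.69 ± 0.233 CPM in that order. These genes share an order of groups and differ in how far contHomo lay below contWT, from 0.893-fold to 0.378-fold over the 8 genes of this form.

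The members not described singly so far had levels of 59.6 CPM or less in T3Homo. ENSXETG00000013055, with 28 exons on the plus strand of GL172934.1 from 372647 to 421357, was of the middle form, at 0.982 ± 0.0459 CPM in contHomo, 2.18 ± 0.359 in contWT, 2.37 ± 0.316 in T3WT and 3.09 ± 0.451 in T3Homo. The other 8 had T3Homo levels 2.08-fold to 2.52-fold those of contHomo, at T3Homo means of 3.04 to 59.6 CPM. Of these 8, 4 were of the first pattern, 3 of the second and 1 of the middle form.

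The average of the contHomo and T3Homo groups minus the average of the contWT and T3WT groups was tested, because this contrast is orthogonal to both differences that the rule used. It measures how the set as chosen lay relative to the WT groups. The choice still bears on it, because this contrast is the mean of contHomo vs contWT and T3Homo vs T3WT. The rule puts the T3Homo comparison above the contHomo comparison in every member. A higher value can thus rest on T3Homo alone, and a lower value on contHomo alone. By the column labels the contrast is the difference of genotype averaged over both T3 states, and by the titles the difference of T3 averaged over both genotypes. In neither reading does a call mean that the difference held in both. Of the 26 genes 4 were called higher and 1 lower at an edgeR adjusted p below 0.05 and a fold change of at least 2, where 1.28% of the 13172 tested genes were called higher and 5.71% lower. The median log2 fold change over the 26 was 0.21, within a range from -1.36 to 2.70, against -0.01 over all tested genes. The level minimum bears on this contrast, because 2 genes, ENSXETG00000002542 and ENSXETG00000021123, reached 2 CPM in T3Homo alone and ENSXETG00000027136 reached it in T3WT alone. Of the 23 genes that reached 2 CPM on both sides, 3 were called higher and the rest were not called. At the adjusted p alone 14 of the 26 were higher, 11 lower and 1 did not pass, against 34.9% higher and 35.9% lower among all. At that threshold the set was thus divided between directions, and the spread between technical libraries is small enough for most genes to pass.

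The 3 genes called higher that reached 2 CPM on both sides were ENSXETG00000033423, at 1.30 ± 0.03 on the log2 scale (SE, edgeR adjusted p = 2.93e-62), ENSXETG00000010923 at 1.21 ± 0.03 (adjusted p = 9.05e-54), and ENSXETG00000018744 at 1.15 ± 0.04 (adjusted p = 7.84e-43). The last was at 0.99 at scaling by total counts, below the fold threshold. In contHomo vs contWT these genes were at 0.64, 0.59 and 0.55 in the order named, and none was called. In T3Homo vs T3WT they were at 1.97, 1.84 and 1.75, and all were called higher. The fold threshold was thus met only where T3Homo, the group that the rule set high, entered. ENSXETG00000002542, the fourth called higher, was at 2.70 ± 0.12 (SE) and ENSXETG00000027136, called lower, at -1.36 ± 0.13. Both entered the set only through the side on which they are high, so these values are a description. The next lowest were ENSXETG00000032715 at -0.81 ± 0.05, ENSXETG00000014375 at -0.63 ± 0.05 and ENSXETG00000002790 at -0.60 ± 0.11, with adjusted p = 6.22e-28, 1.94e-19 and 1.41e-06 in edgeR. In contHomo vs contWT these genes were at -1.47, -1.18 and -1.40 in the order named, and all were called lower. In T3Homo vs T3WT they were at -0.15, -0.09 and 0.20, and none was called. Their low averages thus came mainly from contHomo, the group that the rule set low, and are a description. ENSXETG00000022373, the gene that did not pass, had -0.13 ± 0.08 (edgeR adjusted p = 0.14).

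**Figure D3:**
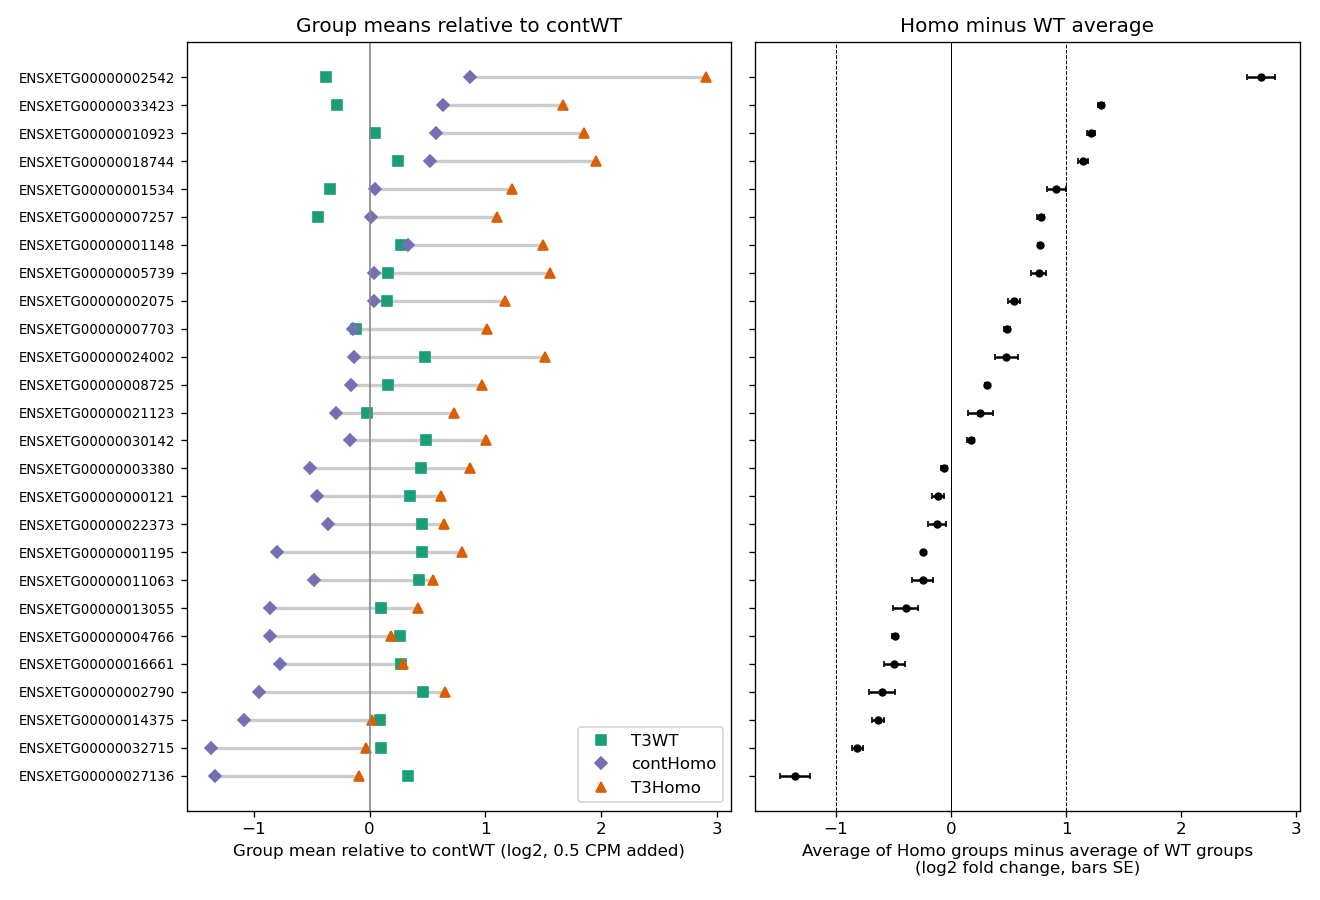
Left, group means of the 26 genes relative to contWT (x axis, log2, 0.5 CPM added, contWT at the grey line at 0), with the bar joining contHomo and T3Homo. Right, the Homo minus WT average as a log2 fold change with its SE (edgeR, 3 libraries per group) and dashed lines at the 2-fold threshold, rows in both panels ordered by this average, which runs from -1.36 to 2.70.

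The single-pool comparisons that make up this average are set side by side as a description, since each shares libraries with the rule. In contHomo vs contWT, 1 of the 26 genes was called higher and 5 lower, where 3.11% and 2.87% of all tested genes were, and the members' median log2 fold change was -0.29 against -0.02. ENSXETG00000002542 was the higher one, at 1.22 ± 0.19 SE. Those lower included ENSXETG00000027136 at -2.15 ± 0.22, ENSXETG00000032715 at -1.47 ± 0.08, ENSXETG00000002790 at -1.40 ± 0.19 and ENSXETG00000014375 at -1.18 ± 0.08. The fifth, ENSXETG00000013055, at -1.14 ± 0.17, is named because the count is small. In T3Homo vs T3WT, 11 were called higher and 15 were not called, where 2.76% of all were called higher and 13.4% lower, and the median was 0.65 against -0.02. Of the 5 genes called lower in contHomo, 3 were of the second pattern and 2 of the middle form.

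The interaction, T3Homo vs contHomo minus T3WT vs contWT, was called positive for 17 of the 26, where 3.24% of all tested genes were. The rule fixes its sign, and nothing is read from that count. The interaction log2 fold changes ran from 0.63 to 2.96. At scaling by total counts 8 of the 26 were called.

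The annotated structure of the 26 genes was set beside that of the 10677 genes at the level minimum, as a description. The 26 had a median of 8.5 exons, from 1 to 46, against 10 for all genes at the level minimum, and a median summed exon length of 1739 bases against 1854. The median span from first to last exon was 11383 bases against 15044. A single exon was annotated in 2 of the 26, and in 2.57% of all genes at the level minimum. None of the exons of the 26 overlapped an exon of another annotated gene, on either strand, where 1.17% of genes did. Whether reads are shared with near-identical copies was not tested.

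The 26 genes were spread over 25 scaffolds, 13 of them on the plus strand. ENSXETG00000001148 and ENSXETG00000008725 shared scaffold GL172686.1 but were not neighbours. Of the 46 genes next to a member on either side, counted among genes at the level minimum, 0 were members and 0 had a T3Homo over contHomo log2 difference of at least 1. Their T3Homo over contHomo log2 differences ran from -0.92 to 0.79, with a median of -0.03. Among all 10677 genes at the level minimum, 172 had a difference of at least 1 and 26 were members. Both are rare, so their absence among 46 genes says nothing about neighbours of members.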

How the data were processed

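Whole-number counts of reads per gene were deposited for 12 libraries, not normalized, in the layout of featureCounts per the file headers. STAR 2.5.3a and featureCounts 1.4.6-p3 are named in the submitters' processing notes. The genome build, annotation, strand setting and treatment of multiply aligned reads were not given in the sources used here, so antisense genes cannot be told apart. Coordinates are printed as the table gives them. Of its 19921 identifiers 0 matched the reference gene table (UCB_Xtro_10.0), and the gene lists and cell type markers prepared for genes with symbols could not be applied.

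Group means were taken on CPM with TMM factors over all genes. Genes were tested with the edgeR 4.0.16 quasi-likelihood method (R 4.3.3) after filterByExpr (13172 genes), with 1 coefficient per group, all 12 libraries and Benjamini-Hochberg adjustment over all genes tested. A call needed a fold change of at least 2 in either direction besides an adjusted p under 0.05. Tested on simulated data with 12934 genes, the Homo minus WT average recovered 100% of genes changed 3-fold, 4-fold or 8-fold and 0% at 1.5-fold, which is below the fold threshold, with 1 false call. The simulation gave every gene the same spread beyond sampling noise and no shift in the T3WT libraries. It was thus an easier setting than the data and does not show how the test performs on them. Libraries of a group differed by more than sampling noise (chi-square per gene 1.25 to 1.84, largest p 4.71e-78) and were counted separately.

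The members, lists and tests were chosen with earlier results of these data known. Members named are those with the 8 largest T3Homo over contHomo differences at 5 CPM or more, the 4 highest T3Homo means, the 4 highest and 4 lowest Homo minus WT averages, and the genes at each limit. Alternatives were RLE and total-count scaling, other pseudocounts and level minimums, no filter, a replicate block, DESeq2 1.42.0, the adjusted p alone and leaving out each library. The average without the T3WT libraries was added after seeing the data. It sets the mean of the Homo groups against contWT in the fit of all 12 libraries.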

Additional observations from a re-analysis of the deposited data

Results flagged for a closer look

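The interaction, the difference between T3Homo vs contHomo and T3WT vs contWT, was called positive in 17 of the 26 genes, against 3.24% of all tested genes. At scaling by total counts 8 of the 26 were called. The choice of the genes fixes the sign of this difference, so nothing is read from the count. The label conflict does not change what it compares, because contHomo and T3WT enter it with the same sign and weight. Groups of 3 libraries are too small for the check of single libraries that stand far from the rest.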

How the results depend on the processing

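The set depends most on the scaling and on the pseudocount. With 2 CPM added in place of 0.5 it held 15 genes, all among the 26, and with 0.1 CPM it held 29, of which 22 were shared. At total-count scaling it held 20 genes, of which 10 were shared, 38.5% of the 26 and 50% of the 20. With RLE factors it held 25, of which 24 were shared. Leaving out each library in turn gave 23 to 28 genes, and 19 of the 26 were members every time. The median Homo minus WT average of the 26 was 0.23 with RLE factors, 0.055 at total-count scaling, 0.32 without the T3WT libraries, and 0.18 to 0.24 without each library in turn. Without each library in turn, 4 to 5 genes were called higher and 1 lower in this average and 16 to 18 in the interaction, and all 26 stayed called in T3Homo vs contHomo. DESeq2 gave 4 higher and 1 lower, and total-count scaling 3 and 1. The interaction was called in 8 genes at total-count scaling, and the share of all genes called there is not given here. At the adjusted p alone it was called in all 26, where 8471 of all 13172 tested genes passed in either direction. The Homo minus WT average was at that threshold called higher in 14 and lower in 11. Without the T3WT libraries ENSXETG00000003380 turned from -0.06 to 0.17 (edgeR adjusted p = 2.09e-06) and ENSXETG00000022373 from -0.13 to 0.14 (edgeR adjusted p = 0.24). This follows from arithmetic, since T3WT was above contWT in both genes, at edgeR log2 fold changes of 0.46 and 0.53. Leaving T3WT out of the average thus raises the value. With the replicate number as a block, 4 genes were called higher and 1 lower, as without it. Over the 26 genes the block changed 0 calls in the 6 contrasts compared. Same-numbered libraries of different groups had correlations of their deviations from -0.02 to 0.04, and differently numbered ones from -0.05 to 0.04. In all, 6 of 12 libraries correlated best with their own number. The correlations were near 0 in both cases and gave no clear sign of pairing, but this check cannot exclude it. Depth limits the genes under 3 CPM, whose lowest library count was 11.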
